A study of Mus musculus with 12 samples.

Results

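Transcripts of 8 nuclear receptor genes of hepatocytes were compared in liver RNA of mice that lack Lcorl and of wild-type mice: Nr1i2, Nr1i3, Hnf4a, Rxra, Nr1h3, Nr5a2, Esr1 and Rora. They form a set of named receptors, chosen with earlier results of these data known, and make up 8 of the 17714 genes of the expression table; all 8 were high enough to be tested. The compared groups were 6 livers of Lcorl knockout females (KO) and 6 livers of wild-type females (WT), all taken from animals aged 3 weeks. The knockout is global, so Lcorl is missing from every cell type of the body and a difference in the liver need not arise in hepatocytes. No source used here gives the allele or the strain. Each library carries the number of its own animal, and the liver was sequenced whole.

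Nuclear receptors are transcription factors that bind DNA through zinc fingers and, in most cases, change their activity when a small lipophilic molecule binds to them. In hepatocytes they tie gene expression to foreign chemicals, bile acids, oxysterols, fatty acids and hormones. Many of them bind DNA as a pair with the retinoid X receptor, at repeats of a short motif whose spacing selects the partner, while others bind as single molecules or as pairs of themselves. Lcorl encodes a nuclear protein related to Lcor, the ligand dependent corepressor, which is known to bind nuclear receptors.

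On GRCm38, with GENCODE M21 genes, Nr1i3 lies on the plus strand at chr1:171213970-171220701 and Nr5a2 on the minus strand at chr1:136842571-136960448. Chromosome 2 holds Hnf4a (plus strand, chr2:163506808-163572910), Rxra (plus strand, chr2:27676440-27762957) and Nr1h3 (minus strand, chr2:91184061-91202834). Rora lies at chr9:68653786-69388246 and Esr1 at chr10:4611593-5005614, both on the plus strand, and Nr1i2 at chr16:38248323-38294824 on the minus strand. The promoters of the receptors with the largest differences between groups, Nr1i3 and Esr1, and that of Hnf4a, the only one of the 13 RefSeq promoters of these genes with a match longer than 6 bases, are printed here from 250 bases before to 50 bases after the start of transcription on the gene's strand (GRCm38.p6). They are chr1:171213720-171214019 for Nr1i3, chr10:4611739-4612038 for Esr1 and chr2:163506607-163506906 for Hnf4a, all on the plus strand, and capitals mark the motif match.
Nr1i3 promoter: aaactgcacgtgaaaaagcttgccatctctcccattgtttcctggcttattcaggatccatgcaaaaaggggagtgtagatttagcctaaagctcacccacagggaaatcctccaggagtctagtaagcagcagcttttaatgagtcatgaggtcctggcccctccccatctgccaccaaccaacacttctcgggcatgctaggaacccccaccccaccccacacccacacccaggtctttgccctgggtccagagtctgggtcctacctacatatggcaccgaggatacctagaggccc
Esr1 promoter: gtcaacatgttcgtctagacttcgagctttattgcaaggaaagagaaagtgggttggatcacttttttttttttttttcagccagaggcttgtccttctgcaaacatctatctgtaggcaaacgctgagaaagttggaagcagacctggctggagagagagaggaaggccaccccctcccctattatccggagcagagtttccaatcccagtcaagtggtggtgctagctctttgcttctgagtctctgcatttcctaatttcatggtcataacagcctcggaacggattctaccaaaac
Hnf4a promoter: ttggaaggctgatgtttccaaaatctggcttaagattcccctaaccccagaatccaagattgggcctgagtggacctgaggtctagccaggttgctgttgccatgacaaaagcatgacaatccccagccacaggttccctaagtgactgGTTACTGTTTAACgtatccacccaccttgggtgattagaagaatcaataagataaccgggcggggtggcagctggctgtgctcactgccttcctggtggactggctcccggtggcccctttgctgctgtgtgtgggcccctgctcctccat
The capitals in the Hnf4a promoter match the element of the hepatocyte factor HNF1, searched as GTTA and TTAAC with 4 bases between them of which the second is T, which was found in 0.0944% of 32851 RefSeq mouse promoters of the same length. Both strands were searched for 8 motifs. The core receptor motif AGGTCA, found in 16.3% of all promoters, occurred in the first Nr5a2 promoter and, on both strands, in the second Rxra promoter. The other motifs were direct repeats of the core motif spaced by 1 or by 4 bases, the oestrogen response element (AGGTCA and TGACC spaced by 3 bases), the ROR element (the core motif after A, any pair of bases and T), the LRH-1 element TCAAGGTCA and the HNF4 element CAAAGTCCA. Those 6 had no match in the 13 windows and lie in between 0.0152% and 0.7% of all promoters; all but the last contain the core motif.

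Lcorl had 3 reads in the 6 KO libraries and 1594 reads in the 6 WT libraries. Depth was 27692285 to 31296485 reads per KO library and 21769795 to 28655120 reads per WT library. The 7 hepatocyte markers in the table summed to 3878922 to 4731617 normalized counts in KO livers and 4184017 to 4549927 in WT livers, and no tested marker of hepatocytes or of another cell type passed the threshold. Transcripts of fat tissue summed to 193 normalized counts in WT 6 and to at most 3.11 in every other liver, and those of the exocrine pancreas summed to 314 in KO 2 and to at most 80.6 elsewhere. Sinusoidal endothelial and stellate cell markers were lowest in KO 1, at 4352 and 9297. Cholangiocyte markers summed to 1240 to 2240 in KO livers and 1813 to 2523 in WT livers.

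None of the 8 receptors differed between KO and WT livers past an adjusted p of 0.05 in limma, fitted over 13569 genes to log2(normalized count + 1). Over all genes tested, 4.43% passed this threshold, 1.75% higher and 2.68% lower in KO. At an unadjusted p under 0.05 there were 3 receptors, Nr1i3, Nr5a2 and Esr1, against 23.4% of all genes. edgeR on the recovered reads called 0 of the 8, against 4.1% of all genes, and DESeq2 called 1, Esr1, against 8.68%. KO was higher for 5 receptors and lower for 3. Their median log2 fold change, KO over WT, was 0.064, beside 0.0075 for all genes tested, and log2 fold changes ran from −0.66 for Esr1 to 0.68 for Nr1i3. No receptor had ranges that did not overlap between the groups, which held for 2.96% of all genes. In whole tissue, fewer cells of a type and less RNA per cell cannot be told apart.

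**Figure D1:**
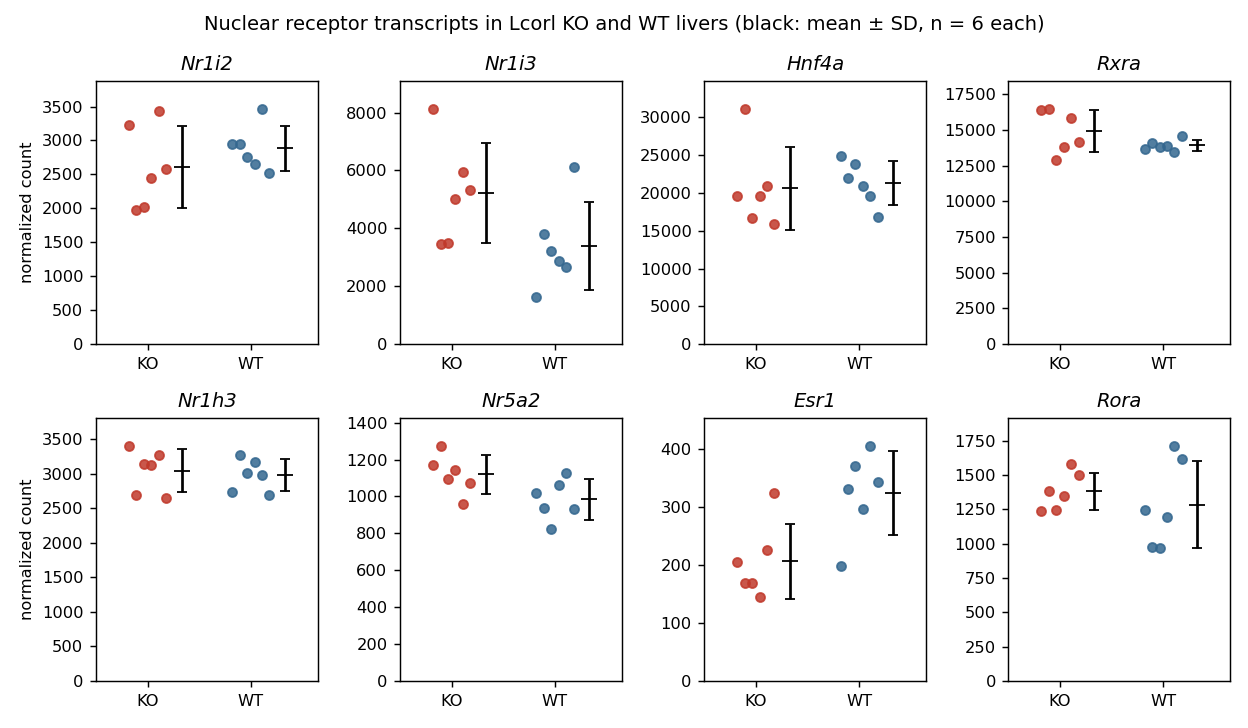
Normalized counts of the 8 receptors (vertical axes, each from 0) in the 6 KO livers, drawn left, and the 6 WT livers, with 1 point per liver and the mean and SD of each group. The KO and WT points overlap in every panel, and 1 KO liver stands at 31075 normalized counts of Hnf4a.

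The group means of the xenobiotic sensors differed in opposite directions, Nr1i3 being higher and Nr1i2 lower in KO livers, and neither difference passed. Nr1i3 encodes CAR, the constitutive androstane receptor, which is held in the cytoplasm until a foreign compound or a change in growth factor signalling releases it to induce drug metabolism. Its normalized counts were 3474 at the lowest, 5174 at the median and 8114 at the highest in KO livers, against 1631, 3051 and 6102 in WT livers. All 6 KO livers lay above the WT median, but WT 6, at 6102, lay above 5 of the 6 KO livers, and WT 2, at 3803, above the 2 lowest of them. The fold was 1.60 with a 95% interval of 1.05 to 2.44 (log2 fold change 0.68, SE 0.28, adjusted p = 0.168). Livers of the same group differed widely, with a coefficient of variation of 33.1% in KO and 44.7% in WT. Without WT 6 the log2 fold change was 0.87 (adjusted p = 0.0524), and without both WT 6 and KO 2, a choice made after seeing the data, it was 0.98 and passed the threshold (adjusted p = 0.0382).

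Nr1i2 encodes PXR, the pregnane X receptor, which binds a wide range of drugs and steroids and induces Cyp3a genes. It had 1975, 2512 and 3429 normalized counts at the lowest, median and highest in KO livers and 2524, 2853 and 3460 in WT livers. KO 2, KO 3 and KO 4 lay below every WT liver and the other 3 KO livers lay within the WT range. The log2 fold change was −0.17 with an interval of −0.46 to 0.13 (adjusted p = 0.498), so the interval reached from 27.4% lower to 9.13% higher in KO. With runs of animal numbers as a block it was −0.072, and it lay between −0.25 and −0.094 when 1 liver was left out. The 3 low KO livers share a run of neighbouring animal numbers with WT 4. The difference of the mean log2 values, KO minus WT, was −0.32 in this run. It was 0.13 in the run of KO 1 and WT 1 and 0.0096 in that of KO 5, KO 6, WT 5 and WT 6. As a description, the ratio of Nr1i3 to Nr1i2 counts was 1.74 to 2.52 in KO livers, with a median of 1.90. In WT livers it ran from 0.554 to 2.42, with a median of 1.13, and 5 of the 6 stood at 1.29 or less. The exception was again WT 6.

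Reads assigned to Nr1i3 carry an uncertainty that those of Nr1i2 do not. Of the 4414 exonic bases annotated to Nr1i3, 3304 also belong to Tomm40l, which encodes a mitochondrial import protein on the opposite strand, and 936 of the 1414 bases of the principal Nr1i3 transcript are shared as well. No source used here says whether reads were counted by strand. Tomm40l itself had 431 ± 84.5 normalized counts in KO livers and 487 ± 31.7 in WT livers (SD, n = 6 each; log2 fold change −0.20, limma adjusted p = 0.328). On the far side of Nr1i3, its upstream neighbour Pcp4l1, chosen with its values in view, rose in KO livers, with 1582 to 3641 normalized counts against 576 to 1281 in WT livers (log2 fold change 1.41, adjusted p = 0.00801), and the ranges did not overlap.

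Of 34 genes that PXR or CAR are known to induce, 33 were tested, 0 rose, 4 fell and 29 did not pass. The share called was 12.1%, against 4.43% of all genes tested. KO was higher for 19 and lower for 14 of the 33, with log2 fold changes from −2.80 to 1.73 and a median of 0.035. An unadjusted limma p under 0.05 was found for 14, against 23.4% of all genes. DESeq2 called 9, against 8.68% of all genes, and edgeR 2, against 4.1%. Cyp2b10, the classical CAR target, fell 6.98-fold, to 4.95 to 54.6 normalized counts in KO livers against 50.5 to 188 in WT livers (adjusted p = 0.00953; 0.0671 with a block for the runs of neighbouring animal numbers). Only 1 KO liver reached the WT range. The transcript of the receptor was higher in the mean and that of its best known target lower, and only the second passed the test. Cyp2b10 has near copies, Cyp2b9 and Cyp2b13, among which reads can be divided.

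Aldh1a7 and Aldh1a1, near-identical aldehyde dehydrogenase genes of which Aldh1a1 makes retinoic acid, averaged 1367 ± 562 and 3976 ± 1566 normalized counts in KO livers and 3392 ± 832 and 8427 ± 2107 in WT livers (SD, n = 6 each). Both fell, by 1.44 and 1.19 on the log2 scale (limma adjusted p = 0.0294 and 0.0485), without overlap of the groups. Gstm3, a glutathione transferase gene with near copies, fell by 1.60 (917 ± 540 normalized counts in KO livers and 2541 ± 1246 in WT livers, SD, n = 6 each; limma adjusted p = 0.0448). The call of Aldh1a7 ended when KO 1, KO 4 or any WT liver but WT 6 was left out (up to 0.0686). That of Aldh1a1 ended without KO 1, KO 3, KO 4 or any WT liver (up to 0.1004), and that of Gstm3 without any liver but KO 6 or WT 6 (up to 0.0895); edgeR called neither of these 2, and none of the 3 calls held with runs as a block (0.136 to 0.196). The PXR target Cyp3a11, named after its values were seen like Cyp2c37, differed by −0.24 on the log2 scale (adjusted p = 0.489). Cyp2c37, which CAR is known to induce, had 23773 to 47462 normalized counts in KO livers and 14411 to 30103 in WT livers (log2 fold change 0.69; limma adjusted p = 0.0594, DESeq2 adjusted p = 0.00873). Of 4 proteins that hold CAR in the cytoplasm, Hsp90aa1 had the smallest p (log2 fold change −0.42, adjusted p = 0.261). None of the 4 passed in limma, none had an unadjusted limma p under 0.05, and edgeR and DESeq2 called none. The unadjusted p of Hsp90aa1 was 0.0441 in edgeR and 0.0299 in DESeq2. In limma Hsp90aa1 passed without WT 6 (adjusted p = 0.0335) and without both WT 6 and KO 2 (log2 fold change −0.61, adjusted p = 0.0454).

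**Figure D2:**
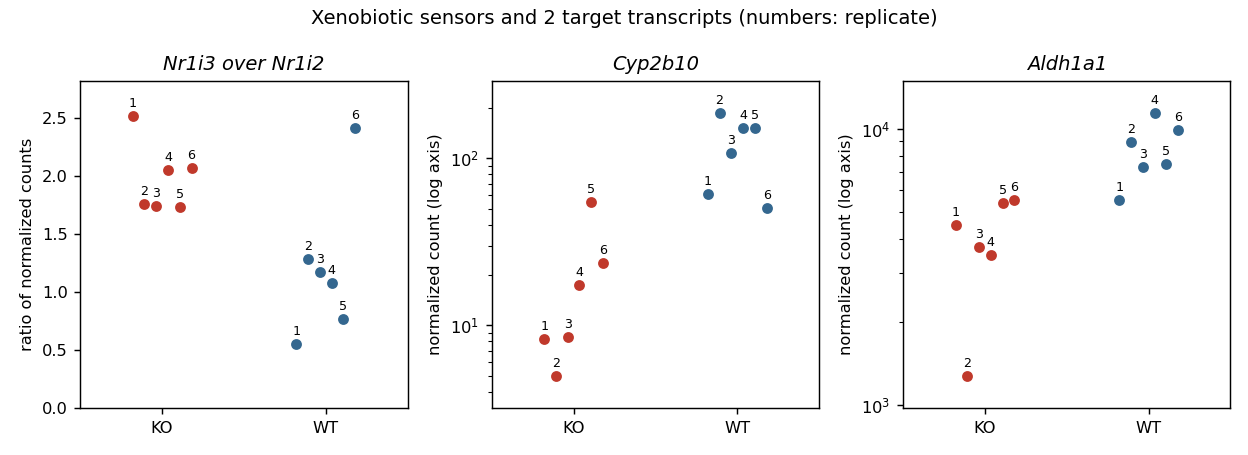
The ratio of Nr1i3 to Nr1i2 normalized counts (left panel, from 0) and the normalized counts of Cyp2b10 and Aldh1a1 (log axes) in the 6 KO livers, drawn left, and the 6 WT livers, 1 point per liver with its replicate number. The ratio is 1.74 or more in every KO liver and 1.29 or less in every WT liver but WT 6, and Cyp2b10 is lower in 5 of 6 KO livers than in every WT liver.

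Rxra encodes the retinoid X receptor alpha, the DNA-binding partner of CAR, PXR and LXR. It had 12926, 15007 and 16447 normalized counts at the lowest, median and highest in KO livers and 13487, 13848 and 14549 in WT livers. The 6 WT livers lay within the KO range. The log2 fold change was 0.10 with an interval of −0.06 to 0.25 (adjusted p = 0.446), a difference from WT of −3.78% to 18.8%. Its spread was 9.97% of the mean in KO and 2.69% in WT; this difference in spread was not tested.

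The receptors of sterol and bile acid metabolism, Nr1h3 and Nr5a2, were 2.19% and 14.0% higher in KO livers in the fit, and neither difference passed. Nr1h3 encodes LXR alpha, which oxysterols activate and which induces sterol export and fatty acid synthesis. Its counts were 2646, 3130 and 3399 in KO livers and 2688, 2990 and 3270 in WT livers, again as lowest, median and highest, with overlap throughout. The log2 fold change was 0.03 (interval −0.13 to 0.20, adjusted p = 0.853), and it was −0.0020 without KO 1. Nr5a2 encodes LRH-1, a receptor that binds DNA alone and drives bile acid synthesis genes. It had 961, 1119 and 1274 normalized counts in KO livers against 822, 978 and 1130 in WT livers, and 3 KO livers lay above every WT liver. Its log2 fold change was 0.19, with an interval of 0.01 to 0.37 and an unadjusted p = 0.0448 (limma), which did not pass over all genes (adjusted p = 0.203). With runs of animal numbers as a block its log2 fold change was 0.083.

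All 19 LXR target genes of the list were tested. Of these, 4 fell, 1 rose and 14 did not pass. The share called was 26.3%, against 4.43% of all genes tested. DESeq2 called 9 of them and edgeR 5, and the median log2 fold change was 0.074. An unadjusted limma p under 0.05 was found for 10 of the 19, against 23.4% of all genes tested. The 4 that fell act in fatty acid synthesis or control it, and they are also known targets of SREBP-1c or ChREBP. Scd1, the stearoyl-CoA desaturase, fell by 4.67 on the log2 scale, Fasn by 2.39 and Acaca by 1.42 (limma adjusted p = 0.00573, 0.0173 and 0.00442). Scd1 ran from 918 to 22205 normalized counts in KO livers and from 33536 to 180138 in WT livers. Its log2 fold change was −3.84 in edgeR and −3.84 in DESeq2. Fasn overlapped between the groups, with the highest KO liver at 12835 and the lowest WT liver at 10195. Mlxipl, which encodes ChREBP, averaged 3752 ± 528 normalized counts in KO livers and 6549 ± 1254 in WT livers (adjusted p = 0.00617). The gene that rose was Lpl, lipoprotein lipase, named after its values were seen, with 17774 ± 2901 normalized counts in KO livers and 10988 ± 2259 in WT livers (log2 fold change 0.70, adjusted p = 0.0184). With runs as a block the calls of Fasn and Lpl ended (0.0940 and 0.0821). Of 11 LRH-1 target genes, 1 fell, 0 rose and 10 did not pass, with a median of −0.038. The share called was 9.09%, against 4.43% of all genes tested. An unadjusted limma p under 0.05 was found for 2 of the 11, against 23.4% of all genes. The gene that fell was Slc10a2, the sodium-dependent bile acid transporter. It had 2.74 to 9.90 normalized counts in KO livers and 12.4 to 20.4 in WT livers (log2 fold change −1.57, adjusted p = 0.0106). Which liver cells held these few counts was not tested. Scarb1, the high-density lipoprotein receptor gene and the next by p, had a log2 fold change of 0.34 (limma adjusted p = 0.0848, DESeq2 adjusted p = 0.0298).

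Hnf4a encodes a receptor that binds DNA as a pair with itself and maintains the expression of most hepatocyte genes. It had 15869, 19580 and 31075 normalized counts at the lowest, median and highest in KO livers and 16794, 21431 and 24938 in WT livers. The highest value belonged to KO 2, the liver with the pancreatic transcripts, and the next KO liver stood at 20917. The log2 fold change was −0.07 with an interval of −0.40 to 0.25 (adjusted p = 0.823). Without KO 2 it was −0.20 (adjusted p = 0.313). The pancreas also expresses Hnf4a, and the part of these transcripts in the value of KO 2 was not tested.

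Of 21 genes that HNF4A is known to activate, 2 fell, 0 rose and 19 did not pass, with a median log2 fold change of 0.031. The share called was 9.52%, against 4.43% of all genes tested. An unadjusted limma p under 0.05 was found for 6, against 23.4% of all genes. Both other methods called 2 as well, against 8.68% of all genes in DESeq2 and 4.1% in edgeR. Apoc3, an apolipoprotein that slows the clearance of triglycerides, had 22883 ± 2871 normalized counts in KO livers and 37065 ± 3301 in WT livers (SD, n = 6 each; log2 fold change −0.70, limma adjusted p = 0.00224). Mttp, which loads lipid onto apolipoprotein B, had 7682 ± 436 in KO livers and 10420 ± 1000 in WT livers (log2 fold change −0.44, limma adjusted p = 0.00607; 0.0666 with runs as a block). The groups did not overlap for either gene. Among 12 hepatocyte transcription factors of other families, 1 rose, 0 fell and 11 did not pass. The share called was 8.33%, against 4.43% of all genes tested, and 5 had an unadjusted limma p under 0.05, against 23.4%. Onecut2 averaged 2740 ± 291 normalized counts in KO livers and 1849 ± 503 in WT livers (log2 fold change 0.60, limma adjusted p = 0.0409). This call ended in edgeR (0.0538), with runs as a block (0.120) and without KO 1, KO 2, KO 4 or any WT liver but WT 6 (up to 0.0878).

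Esr1 encodes the oestrogen receptor alpha, through which oestrogens act on liver lipid and growth factor genes. It was the receptor with the smallest p. Its normalized counts were 145 at the lowest, 187 at the median and 324 at the highest in KO livers, against 198, 337 and 405 in WT livers. Of the KO livers, 4 lay at or below 204, 5 lay below the WT livers other than WT 1, and KO 6, at 324, lay among the WT livers. The log2 fold change was −0.66 (SE 0.20, interval −1.10 to −0.23), or 1.59-fold lower, with an unadjusted p = 0.00569 and an adjusted p = 0.0772 in limma. The adjusted p was 0.0859 in edgeR and 0.0279 in DESeq2, and the authors' deposited table has an adjusted p of 0.0279 with a log2 fold change of −0.49. In limma it passed without KO 6 (log2 fold change −0.81, adjusted p = 0.0203) or without WT 1 (−0.80, 0.0421), and it reached 0.159 when another liver was left out. Esr1 was counted from 151 to 415 reads per library, so that counting alone gives at most 8.14% of error, against a spread between livers of 31.3% in KO and 22.2% in WT.

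Of 7 oestrogen receptor target genes, 6 were tested, 1 rose, 0 fell and 5 did not pass, with a median of −0.11. The share called was 16.7%, against 4.43% of all genes tested. An unadjusted limma p under 0.05 was found for 5 of the 6, against 23.4% of all genes. DESeq2 called 3, against 8.68% of all genes, and edgeR 2, against 4.1%. Tff3, a trefoil factor that oestrogen induces in breast cancer cells, rose 5.30-fold, with 732 to 3516 normalized counts in KO livers and 176 to 447 in WT livers (log2 fold change 2.41, adjusted p = 0.00531). Agt, angiotensinogen, had a log2 fold change of 0.59 and no overlap between the groups (limma adjusted p = 0.0574, edgeR adjusted p = 0.0473). Igf1, insulin-like growth factor 1, and Greb1, an oestrogen-induced cofactor gene, had −1.34 and −1.17 (limma adjusted p = 0.0746 and 0.181). The genes of this list thus lay on both sides of 0.

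Rora encodes the retinoic acid receptor related orphan receptor alpha, which binds DNA alone and takes part in the circadian clock and in lipid metabolism. It had 1237, 1363 and 1578 normalized counts at the lowest, median and highest in KO livers and 971, 1216 and 1711 in WT livers. The KO livers lay within the WT range. The log2 fold change was 0.13 with an interval of −0.17 to 0.43 (adjusted p = 0.613).

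The levels of Rora were also set against the animal numbers, which form 4 runs, where a gap of 10 starts a new run; no label calls them a batch. Run 1 holds KO 1 and WT 1, run 2 WT 2 and WT 3, run 3 KO 2, KO 3, KO 4 and WT 4, and run 4 KO 5, KO 6, WT 5 and WT 6. In run 4 Rora had 1578 and 1497 normalized counts in KO livers and 1711 and 1613 in WT livers. In run 3 it had 1380, 1242 and 1347 in KO livers and 1190 in the WT liver, and in run 1 1237 in KO and 1242 in WT. The 2 livers of run 2, both WT, stood at 977 and 971. An F test of the runs beside genotype in limma, added after seeing the data, gave F = 22.0 and an unadjusted p = 9.34e-05 for Rora, rank 5 of 13569 genes. It did not pass over all genes (adjusted p = 0.203); 0 genes did, and 1135 had an unadjusted p under 0.05. With runs as a block the log2 fold change of Rora between KO and WT was −0.00072.

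Esr1 had the next smallest p of the 8 in that test (unadjusted p = 0.0118, adjusted p = 0.486). In run 3 it stood at 168, 169 and 145 normalized counts in KO livers and 296 in the WT liver. In run 4 it stood at 225 and 324 in KO livers and 405 and 342 in WT livers, and in run 1 at 204 in KO and 198 in WT. KO was thus below WT in runs 3 and 4 and level in run 1, and run 2 holds no KO liver. With runs as a block the log2 fold change was −0.49 (adjusted p = 0.164). For Nr1i3 the run 1 livers lay farthest apart, at 8114 in KO and 1631 in WT. In run 3 the KO livers had 3474, 3502 and 5008 and the WT liver 2866, and in run 4 the KO livers had 5955 and 5341 and the WT livers 2659 and 6102.

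**Figure D3:**
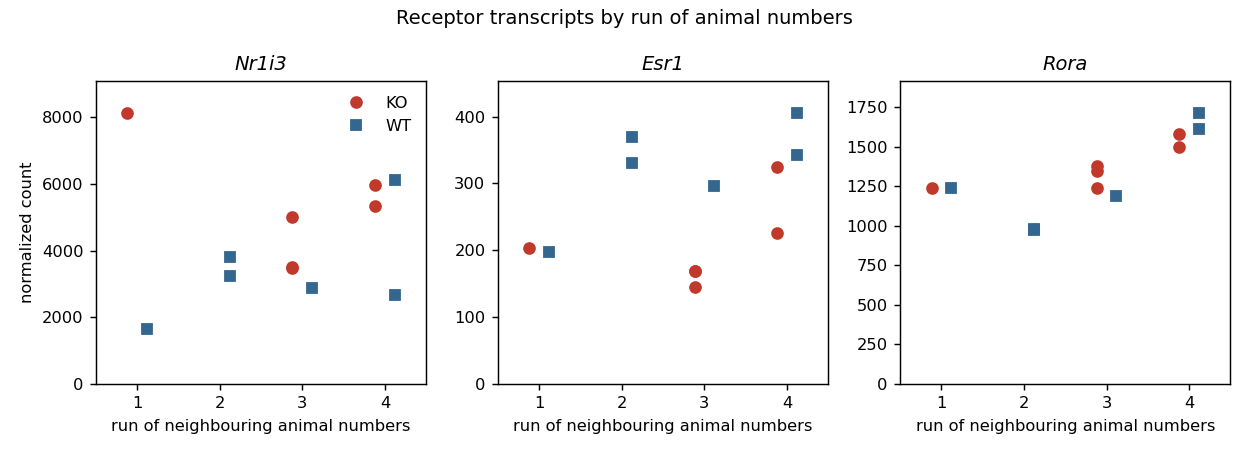
Normalized counts of Nr1i3, Esr1 and Rora (vertical axes, from 0) by run of neighbouring animal numbers (horizontal axis), with KO livers as circles and WT livers as squares. Rora is at 1497 to 1711 in all 4 livers of run 4 and at 977 and 971 in the WT livers of run 2. Esr1 is lower in KO than in WT livers in runs 3 and 4. Run 3 holds 1 WT liver, and in run 4 KO 6 (324) lies near WT 6 (342).

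Of 15 genes that ROR receptors are known to regulate, 14 were tested and 0 passed in limma or edgeR. An unadjusted limma p under 0.05 was found for 3, against 23.4% of all genes tested. DESeq2 called 2, and the median was −0.16. Avpr1a, a vasopressin receptor gene, had a log2 fold change of 0.34 (limma adjusted p = 0.0794), and Lipa, lysosomal acid lipase, one of −0.36 (0.0836). Elovl3, a fatty acid elongase gene with a strong daily rhythm, was low, at 0 to 25.4 normalized counts in KO livers and 8.92 to 47.0 in WT livers (adjusted p = 0.0879). Nfil3, a clock repressor gene, differed by 0.68 on the log2 scale (adjusted p = 0.313).

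Per length, Hnf4a had the highest group means of the 8 receptors and Esr1 the lowest. Levels are given as RPKM, reads scaled to the length of the principal transcript and to the depth of the library. Hnf4a had 169 ± 37.3 RPKM in KO livers and 179 ± 26.3 in WT livers (SD, n = 6 each). Nr1i3 had 133 ± 42.5 in KO livers and 87.5 ± 39.5 in WT livers, and Rxra 109 ± 6.83 in KO livers and 104 ± 3.86 in WT livers. The range of Nr1i3 over all livers overlaps that of Rxra and that of Hnf4a, whose lowest liver stood at 135. Nr1h3 followed with 56.2 ± 6.35 in KO livers and 55.6 ± 4.40 in WT livers, then Nr1i2 with 36.9 ± 8.41 in KO livers and 41.3 ± 4.54 in WT livers, whose range over all livers reaches into that of Nr1h3. Nr5a2 had 21.7 ± 1.66 RPKM in KO livers and 19.3 ± 2.05 in WT livers and Rora 19.2 ± 2.09 in KO livers and 18.1 ± 4.29 in WT livers, which overlap. Esr1 had 1.17 ± 0.384 in KO livers and 1.86 ± 0.396 in WT livers. The place of Nr1i3 depends on the length: over all annotated exons it had 42.7 RPKM in KO livers and 28.0 in WT livers, beside 43.7 in KO livers and 43.2 in WT livers for Nr1h3. The overlap of Nr5a2 and Rora depends on it too. Over all annotated exons Nr5a2 ran from 5.04 to 7.28 RPKM over all livers and Rora from 2.69 to 4.68, without overlap.

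The genes most like a receptor in pattern over the 12 livers were found by the mean absolute difference of standardized log2 values. This difference has a median of 1.08 to 1.13 over all genes for these receptors. Symbols of Gm with a number, symbols that end in Rik and pseudogenes marked -ps were left out. For Nr1i3 the nearest of the remaining genes were Ppp1r1b (0.235) and Cnn3 (0.242), and for Esr1 Slc46a3 (0.321) and Tcn2 (0.326). Rora was closest to Ocln (0.278) and Nek8 (0.331), Nr1i2 to Thoc7 (0.288) and Hhat (0.344), and Rxra to Slco1b2 (0.295) and Zfp956 (0.327). Hnf4a was closest to Ticam1 (0.295) and Tacc2 (0.334), Nr5a2 to BC051226 (0.310) and Ccar2 (0.353), and Nr1h3 to Ddt (0.349) and Sspo (0.366). Among the 8 receptors, the closest pair was Nr1i3 and Rxra, at a difference of 0.677, and for every other receptor the nearest of the 8 lay at 0.845 or more.

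Beyond these 8, 36 other nuclear receptor genes were in the table, of which 31 were tested: 1 rose, 0 fell and 30 did not pass, 22 being higher and 9 lower in KO. The share called was 3.23%, against 4.43% of all genes tested. The median log2 fold change was 0.11, and 6 had an unadjusted limma p under 0.05, against 23.4% of all genes. DESeq2 called 3, against 8.68% of all genes, and edgeR 1, against 4.1%. Pparg, which encodes the fat cell regulator PPAR gamma, rose 1.82-fold, with 513 ± 123 normalized counts in KO livers and 280 ± 71.0 in WT livers (SD, n = 6 each; limma adjusted p = 0.0244). Fat tissue markers summed to at most 3.11 in the KO livers and to 193 in WT 6. Of the WT livers, WT 6 also had the highest Pparg count. The part of fat tissue in the Pparg values was not tested. The call ended without KO 1, KO 4, WT 1, WT 2, WT 3 or WT 5 (up to 0.0594) and with runs as a block (0.115). Esrra, a regulator of mitochondrial genes, had a log2 fold change of 0.40 (limma adjusted p = 0.0583, DESeq2 0.0178), and Hnf4g, the paralog of Hnf4a, one of 1.04 at a low level, with 21.8 to 82.2 normalized counts in KO livers and 14.6 to 41.0 in WT livers (limma adjusted p = 0.0881, DESeq2 0.0233). Without WT 6 and KO 2, Hnf4g passed in limma (1.42, adjusted p = 0.0122), and so did Thra (0.29, adjusted p = 0.0345). Ppara, the fatty acid receptor of hepatocytes, had 0.26, the thyroid hormone receptor gene Thra 0.23, the glucocorticoid receptor gene Nr3c1 −0.13, the retinoid X receptor gene Rxrg −0.48 and the immediate early gene Nr4a1 0.82 (limma adjusted p between 0.121 and 0.296).

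**Figure D4:**
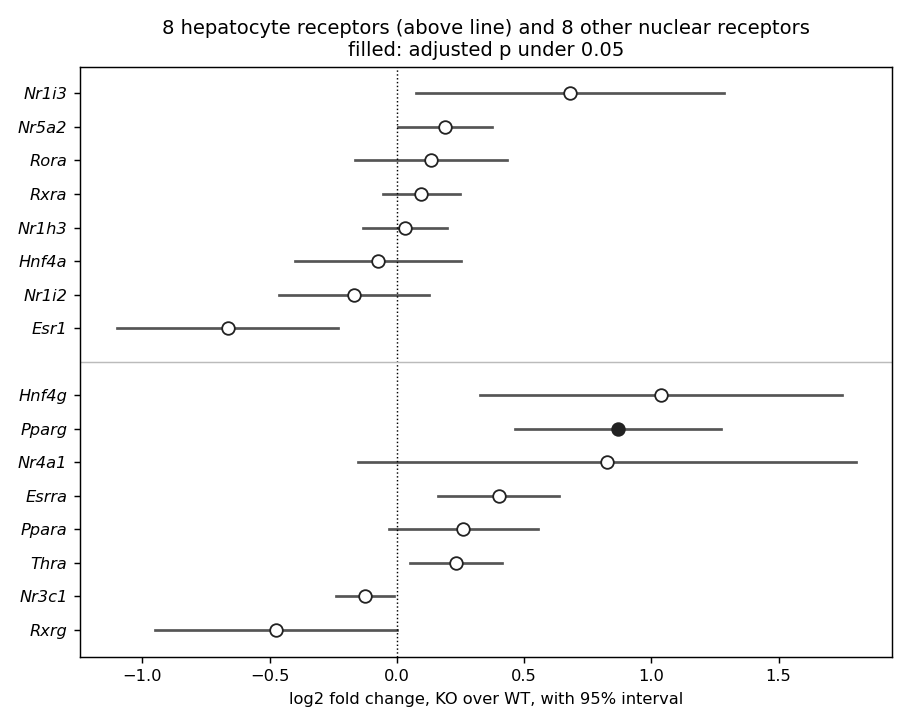
Log2 fold change, KO over WT, with its 95% interval for the 8 hepatocyte receptors (above the line) and the 8 other nuclear receptors with the smallest p (below). The intervals of Nr1i3, Nr5a2 and Esr1 and, below the line, of Pparg, Esrra, Hnf4g, Thra, Nr3c1 and Rxrg exclude 0, and Pparg alone is filled as past the adjusted threshold.

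Of 22 genes for coactivators and corepressors of nuclear receptors, 21 were tested and 0 passed in limma. An unadjusted limma p under 0.05 was found for 3, against 23.4% of all genes tested. DESeq2 called 2 and edgeR 1, and the median was 0.048. Gps2, a subunit of the NCoR corepressor complex, had 487 to 590 normalized counts in KO livers and 395 to 485 in WT livers (log2 fold change 0.26, adjusted p = 0.0560). Carm1, an arginine methyltransferase that acts as a coactivator, had 742 to 854 in KO livers and 657 to 715 in WT livers (log2 fold change 0.19, limma adjusted p = 0.0574, edgeR adjusted p = 0.0462). The groups did not overlap for either gene, and both differences were under 1.2-fold. Sirt1, a deacetylase that acts on several receptors, had a log2 fold change of 0.46, and Med1, the Mediator subunit that receptors contact, one of 0.17 (limma adjusted p = 0.111 and 0.262).

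**Figure D5:**
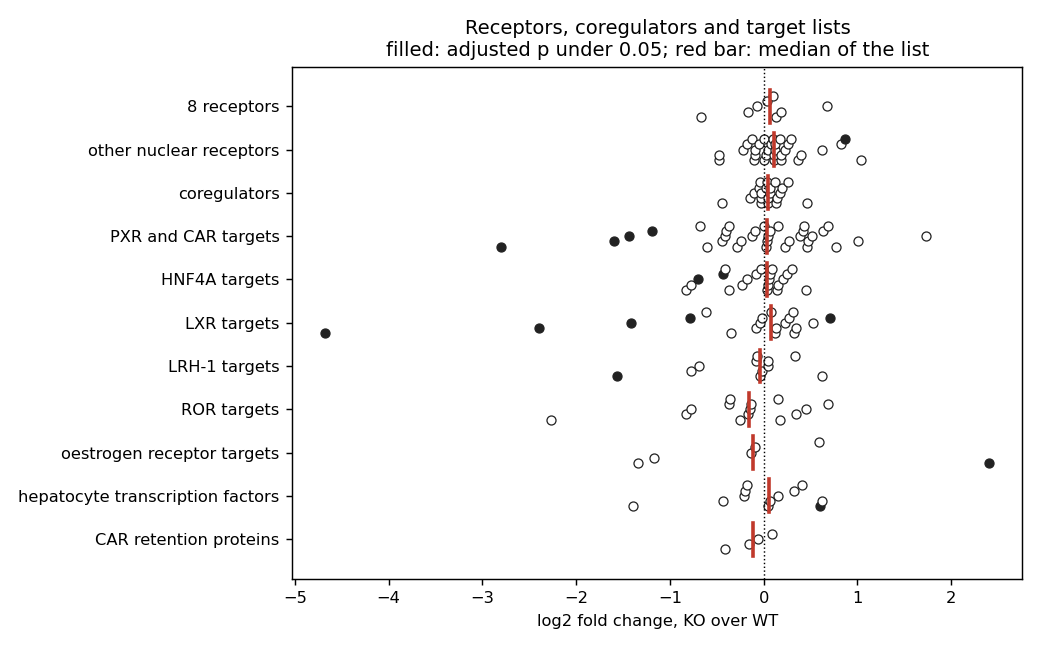
Log2 fold change, KO over WT, of each tested gene of the 8 receptors and of 10 further gene lists, with filled points past an adjusted p of 0.05 in limma and a red bar at each list's median. No point of the 8 receptors is filled, 4 PXR and CAR targets and 4 LXR targets are filled below 0, and each median lies between −0.16 and 0.11.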

How the data were processed

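Per the labels' protocols, liver total RNA of 12 female mice was made into libraries with a TruSeq kit. Tools named by the submitters' processing notes are STAR, featureCounts, FastQC and DESeq2, with mm10 as the build; no source used here gives the annotation, strand setting or filters. The signal deposited is a normalized count per gene, for which the authors divided reads by 1 factor per library. All values were whole multiples of the worth of 1 read, 100% to a tolerance of 0.001 reads, so whole reads were recovered. The authors' deposited table gives per gene a log2 fold change, which is shrunken by a step the headers do not name, as well as p-values before and after adjustment. Rerun on the recovered reads, DESeq2 matched these p-values to within 2.05e-06.

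Genotype was the only term of a limma 3.58.1 fit (R 4.3.3, trended variance) of log2(normalized count + 1), over 13569 genes whose mean was 10 or more. Tests were two-sided and p-values were adjusted by Benjamini and Hochberg over all genes tested, with a threshold of 0.05; a stated adjusted p is limma's unless another tool is named. The added 1 draws fold changes of low genes towards 0, but they can still exceed those of the count tests. The log2 fold change of Cyp2b10 was −2.80 in limma, −2.58 in edgeR and −2.59 in DESeq2. That of Slc10a2 was −1.57, −1.65 and −1.68. Count tests on the recovered reads (DESeq2 1.42.0, edgeR 4.0.16), other pseudocounts, filters and scalings, robust moderation, library weights, a block for runs of neighbouring animal numbers, and leaving out each library were the alternatives. The F test of the runs was added after seeing the data. Depth was 21769795 to 31296485 reads per library, and counting errors cover sampling of reads only. KO 1 to 6 and WT 1 to 6 are names in accession order; each library is 1 animal, so p-values measure the spread between animals.

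The 8 receptors and the 10 gene lists were chosen with earlier results of these data known. Genes named are the 8 receptors, the 8 other nuclear receptors and up to 4 genes of each other list with the smallest p, and the 2 genes most like each receptor; others are said to be chosen after their values were seen. Of the other nuclear receptors, Rorb, Vdr, Pgr, Nr4a3 and Nr5a1 fell under the filter. RPKM was computed from the recovered reads and GENCODE M21 lengths. Promoter sequences are from RefSeq, GRCm38.p6. Counts were simulated for 13569 genes, of which 200 were made to differ between KO and WT. On these counts limma found 53.7% of the 1.5-fold, 86.6% of the 2-fold and 97.0% of the 4-fold changes. Of its calls, 4.82% were false. Whether these shares hold at the spread that each of the 8 receptors had in KO and WT livers was not tested.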

Additional observations from a re-analysis of the deposited data

Results flagged for a closer look

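In 7 of 114 groups of 6 livers examined, 1 liver stood far from the others, with a gap to its nearest neighbour above 0.625 of the group's range; chance flags about 1 in 20 groups. Among the 8 receptors this held for Hnf4a in KO livers, where KO 2 had 31075 normalized counts and the next liver 20917. KO 2 was also the highest KO liver for Slc10a2, at 9.90 with the next at 4.71, and the lowest for Lipa, at 3603 with the next at 5276. KO 1 was the highest for Gps2, at 590 with the next at 524. WT 6 was the highest WT liver for Ppara, at 7012 with the next at 5545, and for Nr4a1, at 292 with the next at 135. WT 1 was the lowest WT liver for Agt, at 27245 with the next at 33137.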

How the results depend on the processing

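Of 192 alternative values of the 8 receptors, 186 kept their direction and their side of the threshold, 4 passed it and 2 changed sign. Those that passed were Esr1 in DESeq2 (−0.65), without KO 6 and without WT 1, and Nr1i3 without both WT 6 and KO 2 (0.98). The number of receptors past the threshold, 0, was 1 in DESeq2 and 1 without WT 6 and KO 2, and 0 to 1 when 1 liver was left out. Those that changed sign were Rora with runs as a block (−0.00072) and Nr1h3 without KO 1 (−0.0020, with a range up to 0.070 when 1 liver was left out). Leaving out 1 liver gave log2 fold changes of −0.81 to −0.58 for Esr1, with adjusted p of 0.0203 to 0.159, and of 0.49 to 0.87 for Nr1i3, with adjusted p of 0.0524 to 0.300. Over all genes, 601 passed (237 higher, 364 lower), against 1323 in DESeq2 (597 higher, 726 lower), 158 with runs as a block (61 and 97), 913 without WT 6 and KO 2 and 224 to 932 when 1 liver was left out. Of 1171 alternative values of the 49 other genes tested this way, 1065 kept direction and call, 58 lost the call and 48 gained it. Without WT 6 and KO 2, calls were gained by Hnf4g, Thra, Gps2, Lipa, Agt, Hsp90aa1 and Cyp2c37 and lost by Gstm3. Leaving out 1 liver also made calls: KO 6 for Esrra, Scarb1, Igf1, Agt, Elovl3 and Baat, KO 2 for Hnf4g, Thra and Agt, WT 6 for Gps2, Lipa, Hsp90aa1, Cyp2c37 and Prox1, KO 3 for Cyp2c37, KO 4 for Avpr1a, KO 5 for Elovl3 and WT 4 for Igf1, with adjusted p from 0.0277 for Scarb1. The causes were not tested. Every scaling kept the median of all genes between −0.013 and 0.021, and 5 receptors higher and 3 lower. No paired analysis was possible because the replicate numbers only follow the accession order; runs of neighbouring animal numbers were used as a block in its place, and run 2 holds WT livers only. Counting limits Esr1 most, at 8.14% of error at its lowest count.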
